A study of Mus musculus with 12 samples.

Results

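Polyamines are small positively charged metabolites that dividing cells make in quantity. The genes described here are the 10 that set their synthesis, control and breakdown: Odc1, Srm, Sms, Amd1, Oaz1, Oaz2, Azin1, Sat1, Paox and Smox. They were taken by symbol from 2 tables of mouse B cells that share 23973 listed genes. All 10 were listed in both tables, and 8 passed the filter on low counts in each. Amd1 and Oaz1 did not.

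RNA was sequenced from 4 groups of 3 libraries each, taken from wild-type (WT) mice or from littermates with the T58A point mutation in MYC, the transcription factor encoded by Myc. T58A replaces threonine 58, a residue whose phosphorylation marks MYC for degradation. Immature B cells from bone marrow were cultured for 48 h in serum-containing medium with interleukin 7 (IL7), a growth factor of B cell precursors. Mature splenic B cells were cultured for 48 h with lipopolysaccharide (LPS), a bacterial product that drives B cells to divide and secrete antibody. The labels do not state the number of mutant alleles, the age of the mice or which mouse gave which library, so the p-values measure the spread between these libraries, which may be technical in part. In bulk RNA, fewer cells of a type and less RNA per cell cannot be told apart.

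Ornithine decarboxylase (Odc1) makes putrescine, the first polyamine. Spermidine synthase (Srm) and spermine synthase (Sms) lengthen it with aminopropyl groups, which come from S-adenosylmethionine after its decarboxylation by Amd1. Antizymes (Oaz1, Oaz2) bind ornithine decarboxylase and send it to the proteasome, and the antizyme inhibitor Azin1 sequesters antizyme. Sat1 acetylates spermidine and spermine, Paox oxidises the acetylated forms, and Smox oxidises spermine. Odc1 and Srm are textbook targets of MYC.

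Sequence matters for reading 3 of these genes. Antizyme is made only when ribosomes change reading frame at a stop codon, a step that polyamines promote. The following stretches of 60 bases around that site come from GENCODE M21 transcripts (GRCm38), with the codon before the stop and the stop itself in capitals. They are shown because the processed copy Oaz1-ps has the same 60 bases as Oaz1, whereas Oaz2 differs from Oaz1 at 11 of them.
Oaz1: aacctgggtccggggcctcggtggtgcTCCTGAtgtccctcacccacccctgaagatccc
Oaz1-ps: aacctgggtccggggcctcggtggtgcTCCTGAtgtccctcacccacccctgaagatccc
Oaz2: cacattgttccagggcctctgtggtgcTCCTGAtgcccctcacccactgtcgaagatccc

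Amd1 has a near-identical copy, Amd2. Their coding sequences of 1002 bases differ by the single substitution G796C (Amd1 base first, Amd2 base last, counted from the first coding base), an identity of 99.9%. Coding bases 766 to 825 show it, with that base in capitals.
Amd1: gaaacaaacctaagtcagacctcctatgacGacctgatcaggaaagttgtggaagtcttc
Amd2: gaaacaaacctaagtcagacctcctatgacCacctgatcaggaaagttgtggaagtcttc

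MYC binds the E-box CACGTG, so the RefSeq promoter windows (GRCm38.p6, 250 bases before to 50 after a start) were searched for these letters. CACGTG reads the same on both strands, and no other motif was searched. Of the 8 members with a window, only Sms held it, in 1 of its 2 windows and 196 bases before the start. Srm and Azin1 had no window, so they were not searched. Sequence outside the windows was not searched for any member, so an E-box there would be missed. It occurred in 2349 of 32851 promoter windows of that length (7.15%). A match is a description and not a binding site. The Sms stretch, chrX:157492451-157492510 on the minus strand, has the motif in capitals.
Sms: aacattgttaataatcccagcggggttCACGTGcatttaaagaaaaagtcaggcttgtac

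Depth ranged from 8486753 to 10201113 reads assigned to genes in IL7 libraries and from 5110746 to 9332410 in LPS libraries. The markers of the labelled cells were present. The summed level of 5 B lineage genes was 25686 to 46272 normalised reads over the IL7 libraries, and 30674 to 35220 over the LPS libraries. In IL7 pairs 1, 2 and 3 this sum was lower in T58A (31168, 28027 and 25686) than in WT (46272, 32433 and 30112). There limma with the numbered pair as a block called 2 of the 5 genes lower and 0 higher. The 5 early B genes summed to 15946 to 21821 in IL7 WT but 14.7 to 35.4 in LPS WT. Normalised reads are read counts divided by 1 size factor per library. In both cultures WT libraries 1 and 2 held high Xist, the transcript of the inactive X chromosome (12436 and 23674 normalised reads in IL7, 11281 and 16684 in LPS), and the other 8 libraries held at most 26.9. IL7 WT 2 also held 31.7 normalised reads of the Y-linked Kdm5d. Sex and genotype therefore run together, apart from pair 3, whose libraries were both male. Myc itself averaged 3024 ± 937 normalised reads in IL7 WT and 4087 ± 934 in IL7 T58A (SD, n = 3). The groups overlapped (2010 to 3858 in WT, 3038 to 4827 in T58A). The log2 difference was 0.46 ± 0.07 (SE), with adjusted p = 0.00791 in limma with the numbered pair as a block. Without the block limma called 0 of 11604 genes. In LPS cultures Myc averaged 858 ± 205 and 1024 ± 366 (SD, n = 3), with adjusted p = 1.00. A point mutation leaves these counts unable to check the genotype.

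In IL7 cultures with T58A, the RNA of the synthesis gene Srm was 1.41-fold higher. That of the breakdown gene Sat1 was 0.603 times its WT level. The other 6 tested members did not pass the test. They included the breakdown genes Paox and Smox, whose log2 differences were positive (0.54 and 0.15). Libraries were compared within the pairs that the titles number, by limma on log2(value + 1) with the pair as a block, at a Benjamini-Hochberg adjusted p under 0.05 over all genes. By this rule 12.7% of the 11604 genes tested were called, 6.41% higher and 6.31% lower, against 1 member higher and 1 lower of 8. The median log2 difference was 0.13 over the 8 members and -0.01 over all genes.

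**Figure D1:**
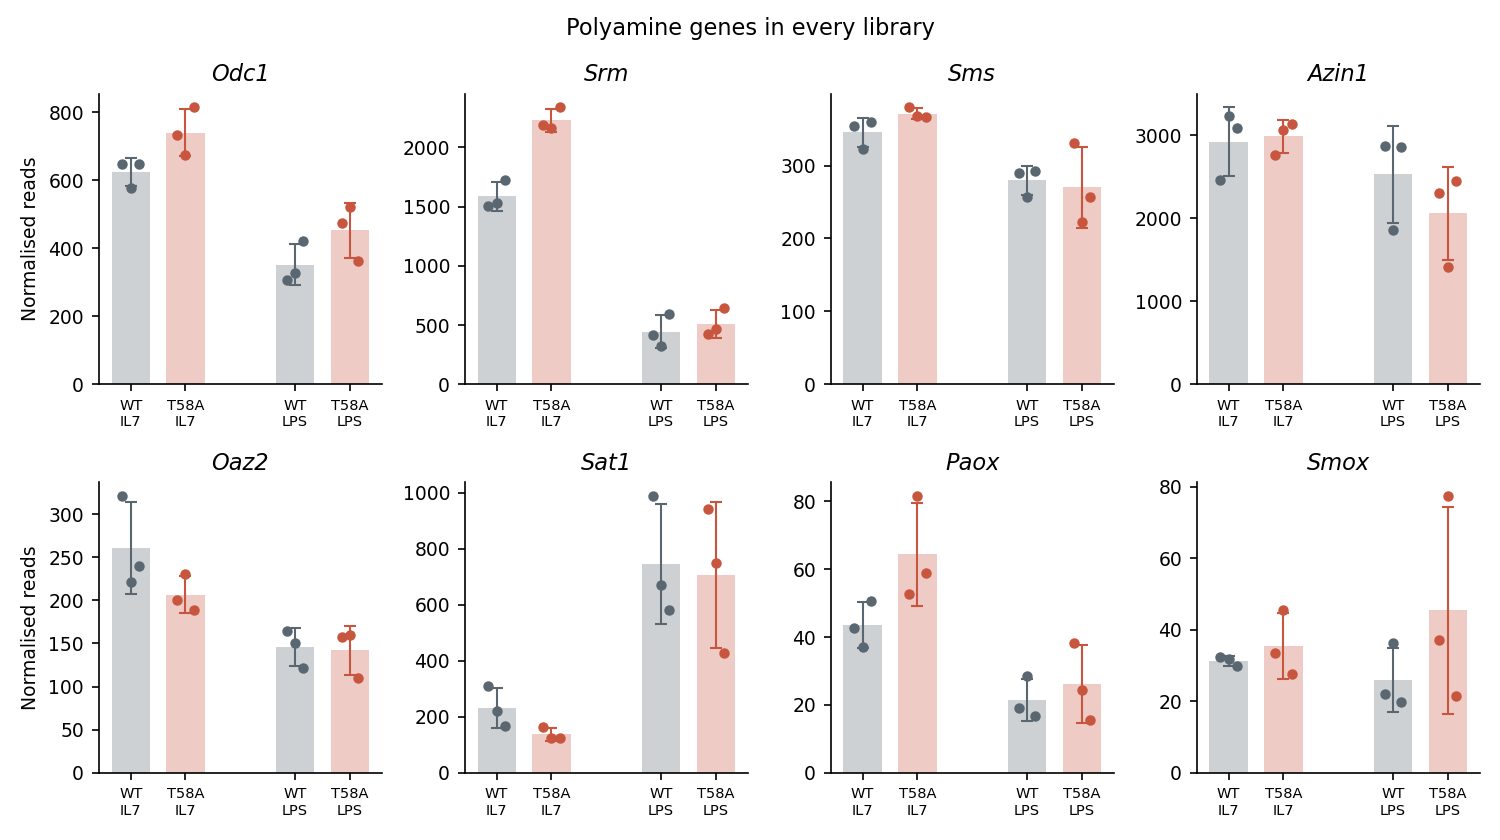
Normalised reads (y axis, from 0) of the 8 tested members in each library (points), with group means (bars) and SD (error bars, n = 3), for WT and T58A in IL7 and LPS cultures. In IL7 cultures Srm lies higher in all 3 T58A libraries (2159 to 2337) than in any WT library (1504 to 1727), and Sat1 lies lower (123 to 164 against 168 to 310).

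Among the synthesis genes, Srm (chr4:148591503-148594993) stood at 1504, 1528 and 1727 normalised reads in IL7 WT libraries 1, 2 and 3 and at 2187, 2159 and 2337 in the T58A libraries of the same pairs. Every T58A library exceeded every WT library. The log2 difference was 0.49 ± 0.06 (SE; 95% interval 0.35 to 0.64, adjusted p = 0.00468, limma). Without the block the estimate was the same but the adjusted p was 0.133 in limma and 0.141 in edgeR, while DESeq2 without the block still called Srm (0.00113) and, over all genes, 2.67%. With sex as a further term, where the estimate rests on pair 3 alone, it was 0.44 with adjusted p = 0.254 (limma). The authors' deposited table gives Srm an adjusted p of 9.18e-06 and Sat1 one of 0.0111, and calls 9.64% of the genes with an adjusted p.

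Odc1 (chr12:17544794-17551505), which encodes the first enzyme of the route, stood at 649, 578 and 649 normalised reads in IL7 WT and at 732, 675 and 814 in T58A. T58A lay above WT in all 3 pairs and the groups did not overlap, a pattern that 12.9% of tested genes showed in that direction and that 4 members showed. The log2 difference of 0.24 ± 0.08 (SE; 95% interval 0.06 to 0.42) did not pass the test (adjusted p = 0.0752, limma). It did not pass in the authors' deposited table either, which gives a log2 fold change of 0.22.

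Sms (chrX:157443855-157492287), which makes spermine, stood at 354, 322 and 360 normalised reads in IL7 WT and at 380, 368 and 366 in T58A. The groups were separated by little, and the log2 difference was 0.11 ± 0.09 (SE; 95% interval -0.11 to 0.32, adjusted p = 0.481, limma).

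Both control genes that could be tested had overlapping groups in IL7. The antizyme gene Oaz2 (chr9:65668001-65690300) stood at 321, 221 and 240 normalised reads in WT and at 200, 230 and 189 in T58A. It was lower in 2 of 3 pairs, with a log2 difference of -0.32 ± 0.15 (SE; 95% interval -0.66 to 0.02, adjusted p = 0.183, limma). Azin1 (chr15:38487427-38519266), the inhibitor, stood at 2459, 3236 and 3083 in WT and at 2766, 3066 and 3134 in T58A. Its log2 difference was 0.04 ± 0.07 (SE; 95% interval -0.12 to 0.20, adjusted p = 0.749, limma).

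Among the breakdown genes, Sat1 (chrX:155213132-155216449) stood at 310, 219 and 168 normalised reads in IL7 WT and at 164, 124 and 123 in T58A. It was lower in T58A in 3 of 3 pairs and the groups did not overlap, as for 10.8% of tested genes in that direction: the lowest WT library, at 168, lay just above the highest T58A library, at 164. The log2 difference was -0.73 ± 0.14 (SE; 95% interval -1.04 to -0.42, adjusted p = 0.0139, limma). Sat1 lost its call without the block (adjusted p = 0.212 in limma, 0.207 in edgeR and 0.0732 in DESeq2), and with sex as a further term the difference was -0.45 (0.526, limma).

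Sat1 is X-linked, and the WT libraries with high Xist were those with the higher Sat1 values, 310 and 219. The T58A libraries of pairs 1, 2 and 3, none with high Xist, stood at 164, 124 and 123. Within the all-male pair 3, Sat1 went from 168 to 123. The summed level of 5 mature B genes, all detected, was lower in T58A in each pair, at 12709, 7950 and 3985 normalised reads in IL7 WT 1, 2 and 3 and at 7349, 4482 and 2686 in T58A, and limma called 3 of the 5 lower. The sum of 10 myeloid genes, all detected, overlapped between genotypes (498 to 1715 in WT, 342 to 785 in T58A). It was lower in T58A in pairs 1 and 3 but higher in pair 2, from 498 to 785, and limma called 0 of its 6 tested genes (2 at an unadjusted p under 0.05). The part of either cell type in the Sat1 result was not tested. Sms, the other X-linked member, did not lie higher in the WT libraries with high Xist. The part of sex in the values of either gene was not tested.

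Paox (chr7:140115799-140137224), the acetylpolyamine oxidase, stood at 42.7, 37.1 and 50.6 normalised reads in IL7 WT and at 52.7, 81.6 and 59.0 in T58A. All T58A values lay above all WT values, yet the log2 difference of 0.54 ± 0.24 (SE; 95% interval 0.00 to 1.08) did not pass (adjusted p = 0.165, limma). Smox (chr2:131491496-131525922), the spermine oxidase, stood at 32.5, 31.7 and 29.7 in WT and at 33.4, 45.5 and 27.6 in T58A, with overlapping groups. Its log2 difference was 0.15 ± 0.25 (SE; 95% interval -0.43 to 0.72, adjusted p = 0.738, limma).

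**Figure D2:**
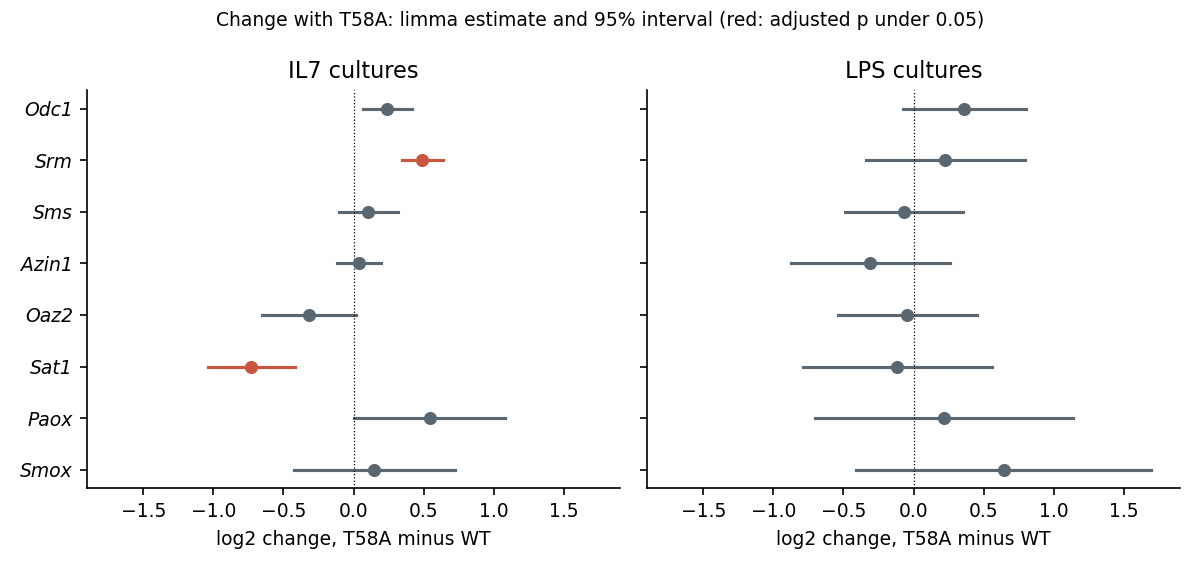
Log2 difference of T58A from WT (x axis) for the 8 tested members in IL7 (left) and LPS (right) cultures; points are limma estimates, lines 95% intervals, and red marks an adjusted p under 0.05. Srm (0.49) and Sat1 (-0.73) pass in IL7, and every LPS interval includes 0.

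In LPS cultures none of the 8 tested members passed the test, and none had an unadjusted p under 0.05 in limma. This fit had no block, unlike that in IL7, so the counts of the 2 cultures are not on equal terms. Over all 11291 genes limma called 0, a percentage of 0, with 284 at an unadjusted p under 0.05. DESeq2 called 1 gene and edgeR 0, and neither called a member. No member had groups that did not overlap, against 6.4% of all tested genes. The T58A libraries are given in the order first unnumbered column, second unnumbered column and library 3, because the header T58A2 stands over 2 columns.

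Odc1 in LPS stood at 308, 326 and 422 normalised reads in WT libraries 1, 2 and 3 and at 475, 520 and 364 in T58A. The first 2 T58A values exceeded all of WT and the last did not, so the groups overlapped. The log2 difference was 0.36 ± 0.19 (SE; 95% interval -0.08 to 0.80, adjusted p = 1.00, limma). Srm stood at 412, 320 and 594 in WT and at 420, 463 and 647 in T58A. The groups overlapped, and the log2 difference was 0.23 ± 0.25 (SE; 95% interval -0.34 to 0.79). With pairs inferred from the authors' p-values Srm was higher in T58A in 3 of 3 pairs, with adjusted p = 0.358 in limma with those pairs as a block. Sms stood at 290, 257 and 293 in WT and at 331, 222 and 256 in T58A, a log2 difference of -0.07 ± 0.19 (SE).

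Azin1 in LPS stood at 2868, 1859 and 2864 normalised reads in WT and at 2311, 1419 and 2449 in T58A. The low value of each genotype was in WT 2 and the second unnumbered column. The log2 difference was -0.31 ± 0.25 (SE; 95% interval -0.88 to 0.26, adjusted p = 1.00, limma). With the inferred pairs, Azin1 was lower in 3 of 3 pairs, and its adjusted p was 0.122 in limma, 0.115 in edgeR and 0.0808 in DESeq2, against 0.0711 in the authors' deposited table, which calls 4.2% of the genes it gives one. By those 3 tests 0.0354%, 0.345% and 2.02% of all genes were called, and no member. The 5 plasmablast genes summed to 31938 to 84330 in LPS WT and 19399 to 57062 in T58A, and their part in the Azin1 values was not tested. Oaz2 stood at 165, 150 and 122 in WT and at 157, 160 and 110 in T58A, a log2 difference of -0.04 ± 0.22 (SE).

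Sat1 in LPS stood at 989, 671 and 581 normalised reads in WT and at 943, 748 and 428 in T58A. The groups overlapped widely, with a log2 difference of -0.12 ± 0.30 (SE; 95% interval -0.79 to 0.56). Paox stood at 19.2, 28.5 and 16.7 in WT and at 38.4, 24.4 and 15.6 in T58A. Smox stood at 22.0, 36.3 and 19.7 in WT and at 37.2, 77.4 and 21.5 in T58A. With the inferred pairs Smox was higher in 3 of 3, with adjusted p = 0.268 in limma with those pairs as a block. Without them Smox had the widest interval of the members, -0.41 to 1.70 around 0.64, so a change of the size seen for Srm or Sat1 in IL7 was not detectable there. The LPS intervals of Srm (-0.34 to 0.79) and Sat1 (-0.79 to 0.56) also included their own IL7 differences, 0.49 and -0.73.

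Whether T58A acted differently in the cultures was tested as the IL7 effect minus the LPS effect over all 12 libraries. limma called 0 of 10767 genes and no member (479 genes and 0 members at an unadjusted p under 0.05). The difference was -0.61 ± 0.41 for Sat1, 0.26 ± 0.29 for Srm and 0.35 ± 0.30 for Azin1 on the log2 scale (SE), each with adjusted p = 0.996. With pairs as a block it was 0.0901 for Sat1 and 0.0900 for Azin1, while 4.1% of genes were called. The IL7 changes of Srm and Sat1 were thus not shown to differ from those in LPS.

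Levels were also compared between genes, as reads per merged exon length and library depth (RPKM). In IL7 WT the order was Srm (107 ± 7.63), Azin1 (50.4 ± 7.09), Odc1 (19.8 ± 1.22), Oaz2 (9.39 ± 1.92), Sat1 (9.04 ± 2.81), Sms (6.19 ± 0.332), Paox (0.954 ± 0.143) and Smox (0.866 ± 0.0435; SD, n = 3 each). Oaz2 and Sat1 overlapped, as did Paox and Smox. In LPS WT it was Azin1 (58.7 ± 12.4), Srm (40.2 ± 12.4), Sat1 (39.1 ± 10.5), Odc1 (15.1 ± 2.64), Oaz2 (7.10 ± 1.03), Sms (6.78 ± 0.357), Smox (0.977 ± 0.362) and Paox (0.640 ± 0.200). There the top 3 overlapped their neighbours, and so did Oaz2 with Sms and Smox with Paox. The order depends on the length used. Per length of the principal transcript alone, Sat1 came first in LPS WT (mean 93.4 RPKM, 72.6 to 121 over 3 libraries), overlapping Azin1 (mean 75.4, 57.0 to 85.4), and in IL7 WT Sat1 stood above Oaz2 and Smox above Paox. Sat1 stayed first in LPS WT when all reads were divided by the number of unshared windows of that transcript. That measure shortens the length only and removes no reads, so it raises genes with much shared sequence if shared reads were counted.

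**Figure D3:**
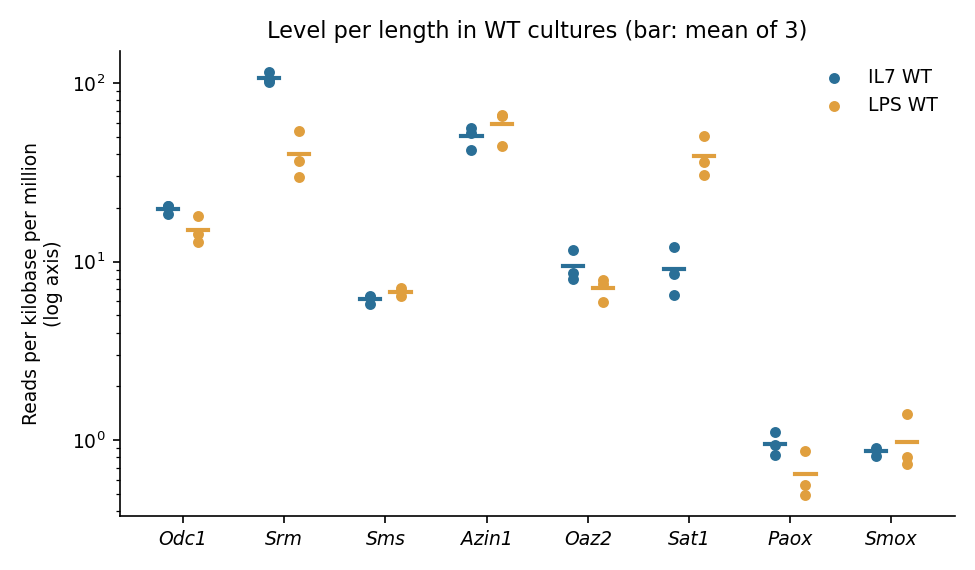
RPKM (y axis, log scale) of the 8 tested members in the 3 WT libraries of each culture (points) with their mean (bar). Srm leads in IL7 (mean 107), and Sat1 is at 9.04 in IL7 and 39.1 in LPS.

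The cultures differ in tissue, B cell stage and stimulus, which cannot be told apart, and the tables were normalised separately, so the next values are a description with no test. Srm was at 171 ± 12.2 CPM, reads scaled by library total, in IL7 WT and 64.2 ± 19.8 in LPS WT (SD, n = 3), 2.66-fold higher in IL7. Sat1 was at 25.1 ± 7.80 and 108 ± 29.2, 4.33-fold higher in LPS. Odc1 (67.3 against 51.2) and Oaz2 (28.1 against 21.2) were also higher in IL7 without overlap, by 1.31-fold and 1.32-fold, whereas Sms, Azin1, Paox and Smox overlapped. The share of all genes without overlap between the cultures was not computed, so such gaps are not shown to be particular to these members.

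Amd1 (chr10:40287458-40302186) and Oaz1 (chr10:80826656-80829290) were listed at 0 in nearly every library. Amd1 had 1 read over the 6 IL7 libraries, in WT 2, and 0 over the 6 LPS libraries. Oaz1 had 1 read in IL7, in WT 1, and 2 in LPS, both in T58A library 3. A count of 0 allows up to 3 reads, or 2.15 to 4.12 normalised reads, for counting error only.

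These values do not show that the genes were silent. Of all 50-base windows of the principal Amd1 transcript, 87.6% also occurred in transcripts of other genes, chiefly Amd2. For Oaz1 it was 53.9%, all in Oaz1-ps, and Amd2 and Oaz1-ps were at 0 in every library. Gapdh, an abundant glycolytic enzyme with 82.5% of windows shared, was listed at 58.9 to 102 normalised reads in IL7. Ppia, an abundant prolyl isomerase with 54.3% of windows shared, close to the share of Oaz1, nevertheless held 825 reads over the IL7 libraries and 611 over the LPS libraries. Odc1 (42.2%), Paox (28.9%) and Sms (28.7%) shared less, and Srm (2.40%) and Sat1 (7.28%) little. How the authors treated reads that match several places is not given in the sources used here, and its part in the zeros was not tested.

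**Figure D4:**
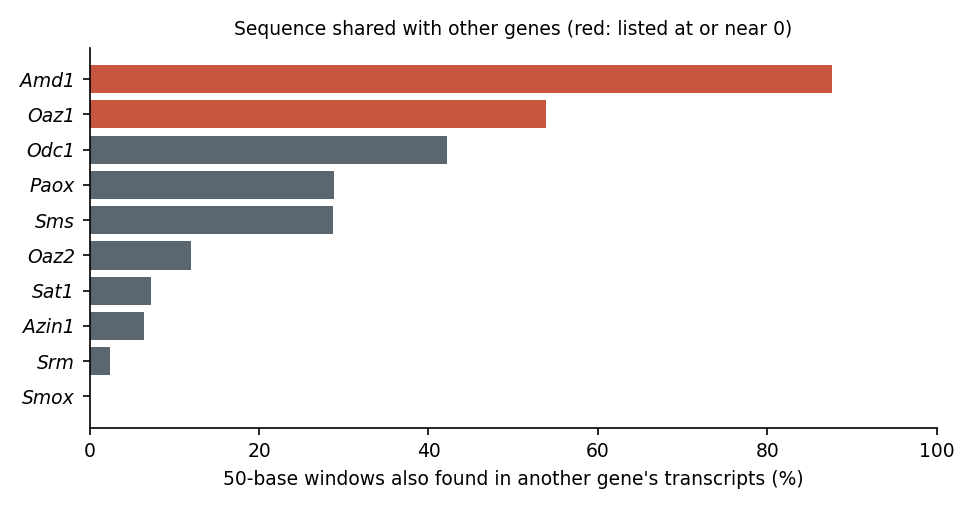
Percentage of 50-base windows of each member's principal transcript that also occur in a transcript of another gene (x axis, from 0), with members listed at or near 0 in red. Amd1 (87.6%) and Oaz1 (53.9%) have the largest shares of the 10 members, and Smox has 0.

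The wider pathway was described through 39 further genes, of which 23 could be tested in IL7. There 8 rose and 1 fell with T58A (limma with the pair as a block), with a median log2 difference of 0.22, against the 12.7% of all genes called. None of the 9 passed in limma without the block. The paralogs Amd2, Oaz3, Sat2 and Satl1 could not be tested.

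In the methionine group, which supplies S-adenosylmethionine and recycles its by-products, 4 of 10 tested genes rose and none fell. Ahcy, which clears S-adenosylhomocysteine, had a log2 difference of 0.46 (adjusted p = 0.0253, limma), from 220 ± 18.6 to 303 ± 10.8 normalised reads (SD, n = 3). Mtr, which remakes methionine, had 0.34, and the salvage enzymes Enoph1 and Mtap had 0.34 and 0.31. Mtap and Enoph1 had overlapping groups.

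In transport, 2 of 3 tested genes rose: the arginine carrier Slc7a1 by 0.56 on the log2 scale (adjusted p = 0.00855, limma), from 2266 ± 489 to 3305 ± 427 normalised reads (SD, n = 3), and the polyamine transporter Atp13a3 by 0.33. In the turnover group all 3 tested genes were called. Maoa, a monoamine oxidase, rose by 0.73 and Psme3, a proteasome activator, by 0.30, and the quinone reductase Nqo1 fell by 0.82. None of 3 arginine and ornithine supply genes passed (Aldh18a1, which makes the precursor of ornithine, 0.22 with adjusted p = 0.0669, limma). Nor did any of 4 hypusine genes (Eif5a2 0.42 with adjusted p = 0.0701, limma). They encode forms of the factor eIF5A and the enzymes that modify it with a part of spermidine.

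**Figure D5:**
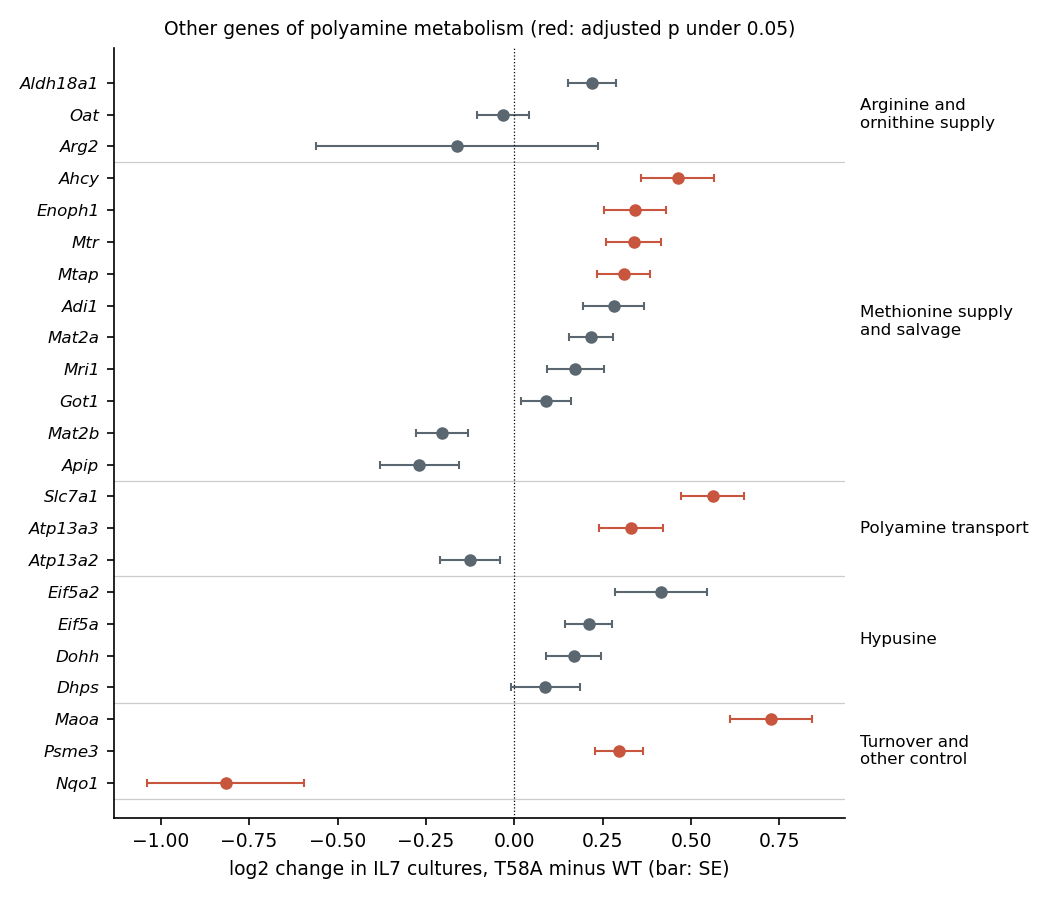
Log2 difference of T58A from WT in IL7 cultures (x axis) for the 23 tested genes of the wider pathway, grouped by role; points are limma estimates, bars SE, and red marks an adjusted p under 0.05. The 8 genes that rose lie between 0.30 (Psme3) and 0.73 (Maoa), and Nqo1 lies at -0.82.

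In LPS cultures 23 of the 39 genes were tested and limma called none, with 1 at an unadjusted p under 0.05, the salvage enzyme Mri1 (0.52 ± 0.19, log2, SE). The median log2 difference was 0.12. The smallest p of each other role belonged to Oat (-0.12), Atp13a2 (0.32), Dohh (0.20) and Maoa (0.83).

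Among 10166 of the 10767 genes tested in both tables, with predicted genes and immunoglobulin segments left out, those whose log2 values most resembled Odc1 over the 12 libraries, centred within each culture, were Exosc4 (Pearson r = 0.88), Atad3a (0.86), Fdxacb1 (0.86), Rnf126 (0.85) and Smyd5 (0.85). These correlations describe libraries that share genotype groups and carry no p.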

How the data were processed

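RNA was measured in 12 libraries. Per the submitters' processing notes, bcl2fastq 1.8.4, TopHat2 2.1.0 (mm10), HTSeq 0.6.1 and DESeq2 were used. The authors deposited per culture a normalised signal per gene and library, and a log2 fold change, p-value and adjusted p-value per gene. Each library's values were multiples of its size factor step, and 100% of them became whole reads (tolerance 0.001) once divided by it. Since the tables hold normalised values, limma 3.58.1 (R 4.3.3) was run on log2(value + 1), with filterByExpr of edgeR 4.0.16 (minimum count 10, minimum total 15) as filter. DESeq2 1.42.0 and edgeR on the recovered reads were alternatives. A count of 0 allows 3 reads.

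In IL7 the pair was a block: deviations of same-numbered libraries correlated at 0.41, 0.15 and 0.40, and DESeq2 with these pairs shared all 1036 of the authors' calls (286 without pairs). In LPS the headers do not number 2 T58A columns, so no block was used. Pairing the first with WT 1 shared 225 of 225 calls, against 1 with the 2 columns exchanged and 1 with no pairs. The labels do not state this pairing, so it was used as an alternative only. The main fits of IL7 and LPS thus differ in the block, and their counts of called genes are not on equal terms. The fits were run on simulated counts with known folds. Those counts held no pair or sex effect, so they cannot show whether the block is right. Sequences came from GENCODE M21 and RefSeq, and windows were of 50 bases. All members, each called pathway gene, the smallest p per role and the 5 genes most like Odc1 were named. Members and lists were chosen with earlier results of these data known. Figures used matplotlib 3.10.9.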

Additional observations from a re-analysis of the deposited data

How the results depend on the processing

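Of 480 log2 differences of members under alternatives, 445 kept direction and side of the threshold, 21 lost the call and 14 changed sign. Most belong to members with no call to lose. All 21 lost calls were those of Srm and Sat1 in IL7, the only calls. Srm kept its call in 12 of 22 alternatives and Sat1 in 11 of 22. In IL7 the replicate block decided the counts. Against 2 members, 1476 genes and 9 other pathway genes with it, limma without it called 0, 0 and 0, as did edgeR without it and all 12 libraries in 1 fit, DESeq2 without it called 1, 310 and 0, and sex as a further term gave 0, 42 and 0. Without 1 library and without the block, limma called 0 members, 0 to 2 genes and 0 other pathway genes. Without pair 1, 2 or 3, Srm and Sat1 stayed called (Sat1 adjusted p = 0.0495, limma, without pair 2), while the counts were 775 (pair 2) to 1396 (pair 1) for all genes, with 840 without pair 3, and 2 (pair 2) to 7 (pair 1) for other pathway genes, with 3 without pair 3. DESeq2 with the block called 5 other pathway genes. In LPS, against 0 genes, DESeq2 called 1, sex as a further term 1, and inferred pairs as a block 4 (limma), 39 (edgeR) and 228 (DESeq2); leaving out 1 library gave 0 to 6. Signs changed for 14 log2 differences. With sex, they were -0.10 for Smox in IL7 and, in LPS, -0.24 for Srm, 0.20 for Oaz2 and 0.21 for Sat1. The LPS fit with sex has no block, so its estimates compare the T58A libraries with WT 3 alone, the only male WT library. Leaving out 1 pair or library, the range in IL7 was -0.082 (without WT 1) to 0.12 for Azin1 (-0.03 without pair 1) and -0.043 (without T58A 2) to 0.31 for Smox (-0.03 without pair 2). In LPS it was -0.23 to 0.060 for Sms (without the second unnumbered column), -0.17 to 0.13 for Oaz2 (without T58A 3; 0.05 without WT 1), -0.36 to 0.21 for Sat1 (without T58A 3; 0.10 without WT 1) and -0.10 (without the first unnumbered column) to 0.53 for Paox. The cause was not tested. The edgeR and DESeq2 fits without the block in IL7 and with inferred pairs in LPS, and the levels per principal transcript and per unshared sequence, were added after seeing the data. Paox and Smox had few reads (323 and 201 over the IL7 libraries, 146 and 239 over the LPS libraries), which limits their precision.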
